A study of Mus musculus with 8 samples.

Results

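The messenger RNA of 35 genes of cholesterol synthesis, sensing, transport and esterification was compared between Lgr5-GFP+ intestinal stem cells of 2 genotypes, β-catGOF; Mll1-/- and β-catGOF; Mll1+/-, with 4 mice each. The 35 genes were chosen by name from a list, with earlier results of these data known. Every one of them was found by its symbol in the table of scaled counts, joined by its Ensembl ID to the count table of 53801 genes, and passed the filter on low counts. *Soat1*, which encodes the enzyme that esterifies cholesterol for storage in most cells, fell 1.89-fold in the Mll1-/- libraries, from 478 ± 73.2 to 252 ± 16.9 CPM (CPM are counts scaled to the TMM-adjusted size of the library; mean ± SD, n = 4). *Soat1* was the 1 gene of the 35 past the adjusted threshold of 0.1 in edgeR, which 0.0851% of all tested genes passed. In most fits with 1 library left out, *Soat1* missed that threshold. *Soat2*, the other cholesterol acyltransferase, was higher in all 4 Mll1-/- libraries than in any Mll1+/- library, and 16 of the 18 synthesis genes had a positive log2 fold change, without passing that threshold.

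All 8 mice carried Lgr5-EGFP-IRES-CreERT2, in which GFP and a tamoxifen-activated Cre are made where the stem cell gene *Lgr5* is active, and a β-catenin allele that loses exon 3 after recombination and then makes a stabilized protein (β-catGOF). They also carried floxed *Mll1* (gene symbol *Kmt2a*, a histone H3K4 methyltransferase), on 1 allele in the Mll1+/- mice and on both in the Mll1-/- mice. The mice received tamoxifen (50 mg/kg, 3 daily doses) when they were 4 to 6 weeks old. Crypt cells stained for EpCAM, CD45 and CD24 were sorted 10 days after the recombination was started, in small numbers per library. Cre acts only in Lgr5+ cells and their descendants, crypts without recombination can remain, the study used both sexes without labelling them here, and no libraries without β-catGOF were analysed here. The samples were bulk RNA of sorted cells, so fewer cells of a type and less RNA per cell cannot be told apart.

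Cholesterol is made from acetyl-CoA through mevalonate, the isoprenoid diphosphates, squalene and lanosterol, followed by a chain of reductions, demethylations and isomerizations. When sterols run low in the endoplasmic reticulum, the escort protein SCAP carries the SREBP transcription factors to the Golgi for cleavage, and INSIG proteins hold them back when sterols are plentiful. Surplus cholesterol is esterified by the SOAT enzymes or activates, as oxysterols, the LXR receptors, which turn on export. The small intestine takes up dietary cholesterol and also makes its own.

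Promoter sequences are shown for 3 genes, *Hmgcs1* and *Mvd* as synthesis genes whose genotypes did not overlap and *Soat1* as the gene that fell. Each is the run of 250 bases just before the RefSeq transcript start, 5′ to 3′ on the strand of the gene (GRCm38.p6). Capitals mark the letters TCACNCCAC, a core form of the sterol regulatory element that SREBPs bind, and CCAAT, the site of the NF-Y factor that works beside SREBPs at such promoters, each on either strand (ATTGG is CCAAT on the other strand).
Hmgcs1 (chr13:119690101-119690350, + strand): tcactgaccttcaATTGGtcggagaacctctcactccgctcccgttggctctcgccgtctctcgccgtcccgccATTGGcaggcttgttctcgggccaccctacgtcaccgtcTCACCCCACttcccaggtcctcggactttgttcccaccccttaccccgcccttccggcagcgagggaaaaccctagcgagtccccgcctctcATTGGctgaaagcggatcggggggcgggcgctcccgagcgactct
Mvd (chr8:122443423-122443672, - strand): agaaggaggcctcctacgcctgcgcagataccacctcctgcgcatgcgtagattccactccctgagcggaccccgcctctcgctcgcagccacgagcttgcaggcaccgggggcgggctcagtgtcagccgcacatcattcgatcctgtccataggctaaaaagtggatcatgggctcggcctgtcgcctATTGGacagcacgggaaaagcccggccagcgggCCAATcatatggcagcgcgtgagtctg
Soat1 (chr1:156474329-156474578, - strand): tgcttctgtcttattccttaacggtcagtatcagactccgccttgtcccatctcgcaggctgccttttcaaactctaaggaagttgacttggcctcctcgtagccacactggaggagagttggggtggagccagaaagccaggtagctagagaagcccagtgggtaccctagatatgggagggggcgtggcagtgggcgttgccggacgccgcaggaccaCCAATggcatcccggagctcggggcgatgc
The *Hmgcs1* promoter held TCACCCCAC at bases -137 to -129 from the start and CCAAT at 3 places, the *Mvd* promoter held CCAAT at 2 places, and the *Soat1* promoter held it at 1 place, bases -30 to -26. Over the window from 250 bases before to 50 after the start, RefSeq promoters were found for 29 of the 35 genes, and *Hmgcs1* was the 1 gene of these with TCACNCCAC, which 1.34% of the 9835 tested genes with a promoter in the table had. CCAAT stood in 24 of the 29 genes and in 14 of the 15 synthesis genes with a promoter, against 43.4% of the tested genes. The palindrome CACGTG was found in 6 of the 29 (11.7% of tested genes) and GGGCGG in 23 (67.4%). These are matches of letters on both strands, and no match says only that these letters are not in this window.

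The libraries held 14468751 to 16847793 counts on genes, of which 23.3 to 30.1% in Mll1+/- and 17.1 to 27.1% in Mll1-/- were mitochondrial. The TMM factors behind the CPM ran from 0.864 to 0.995 in Mll1+/- and from 1.003 to 1.126 in Mll1-/-, without overlap. In CPM, a floor of 3 counts was 0.162 to 0.241, and since the reads carry no molecular identifiers it covers counting error only. The targeted gene *Kmt2a* did not separate the labels, with 48.9 to 64.9 CPM in the libraries labelled Mll1+/- and 53.5 to 78.5 CPM in those labelled Mll1-/- (log2 fold change 0.24, SE 0.17, adjusted p = 0.710 by edgeR), and counts over the whole gene include exons outside the floxed part. *Lgr5* was found in every library at 215 to 308 CPM. The library of Mll1-/- mouse 3 stood apart with a quality weight of 0.236 in limma, the lowest of the 8. Summed markers did not overlap between the genotypes for the stem cell list (10 genes, 23040 to 27580 CPM in Mll1+/- and 10920 to 17250 in Mll1-/-), the enterocyte list (10 genes, 342.7 to 437.5 and 197.1 to 271.8), the enteroendocrine list (7 genes, 9.71 to 70.4 and 5.12 to 9.41) and the stromal list (8 genes, 6.33 to 11.95 and 50.3 to 122). The stem cell sum was mostly *Olfm4* (means 20740 and 12160 CPM), and the list did not fall as a whole. Of its 10 genes, 7 were negative and 3 positive (median log2 fold change -0.18), and *Lgr5* had means of 271 and 261 CPM. The stromal sum was almost all *Vim* in Mll1-/- (mean 72.2 CPM), but mainly *Pecam1* (4.99 CPM) and *Vim* (3.25 CPM) in Mll1+/-. The 3 collagen genes, *Dcn*, *Pdgfra* and *Cdh5* were under a mean of 1 CPM. The goblet and Paneth sums overlapped (8 genes, 607 to 806 CPM in Mll1+/- and 687.9 to 1259 in Mll1-/-, and 7 genes, 1964 to 4740 and 1329 to 2540). By sign, 6 of 8 goblet markers were positive (median log2 fold change 1.01) and 6 of 7 Paneth markers negative (median -1.005). The 1 positive Paneth marker was *Mmp7* (means 148 CPM in Mll1+/- and 304 in Mll1-/-). At an unadjusted p under 0.05 by edgeR lay 5 goblet, 5 Paneth, 5 enterocyte and 3 stem cell markers, beside 1505 of all 16445 tested genes. No marker of these lists passed the adjusted threshold of 0.1. The part of these markers in the values below was not tested. The mice, numbered 1 to 4 here in each genotype, fall into 2 sets by the animal numbers in the labels, mice 1 and 2 and mice 3 and 4 of each genotype, and the labels do not say what else the sets share.

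Over all 16445 genes tested with edgeR's quasi-likelihood test, 0.0851% passed the adjusted threshold of 0.1 (14 genes, 8 higher and 6 lower in Mll1-/-), and among the 35 cholesterol genes 1 did. The smallest adjusted p of all tested genes was 0.0918, so every call lay close to the threshold. At an unadjusted p under 0.05, 11 of the 35 were higher in Mll1-/- libraries, against 5.4% of all genes, and 2 were lower, against 3.75%. Without overlap between the genotypes, 6 of the 35 were higher in all Mll1-/- libraries (3.34% of all genes) and 1 was lower in all of them (2.94%). The median log2 fold change of the 35 genes was 0.32, with 28 positive and 7 negative, and that of all tested genes was 0.01 with 50.8% positive. Because the 35 genes were chosen with earlier results of these data known, these shares describe the list and do not test it. The 11 higher genes were *Soat2*, 8 synthesis genes, *Srebf1* and *Nr1h2*, as the plot of fold changes by role shows, and the 2 lower ones were *Soat1* and *Sc5d*.

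**Figure D1:**
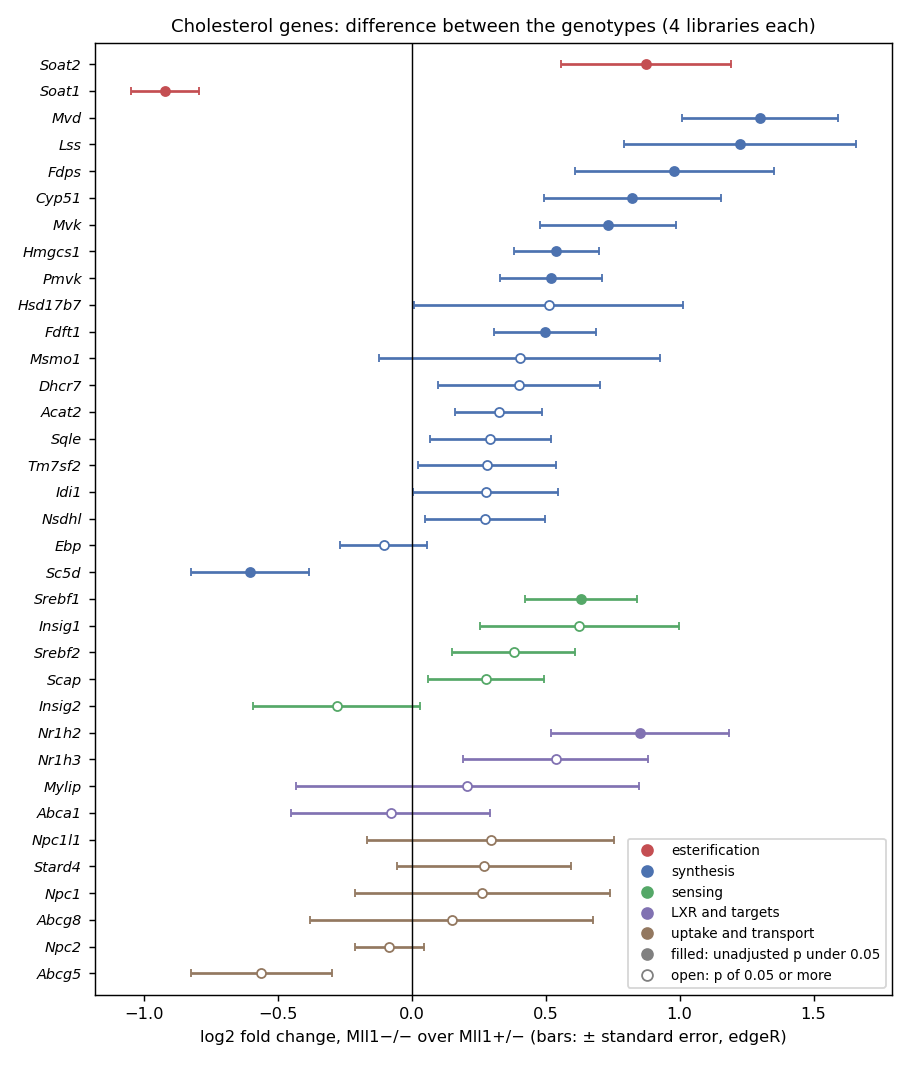
Log2 fold change of each of the 35 genes, Mll1-/- over Mll1+/-, with its standard error from edgeR (4 libraries per genotype), grouped by role and coloured by it. Filled points have an unadjusted p under 0.05. Soat1 lies at -0.92 and Soat2 at 0.87, and 16 of the 18 synthesis genes lie to the right of 0, from Nsdhl at 0.27 to Mvd at 1.30.

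Esterification was carried at the RNA level mainly by *Soat1* (ENSMUSG00000026600, chr1:156424525-156474331, minus strand), the widely expressed acyl-CoA cholesterol acyltransferase of the endoplasmic reticulum. *Soat1* measured 510.6, 384.3, 462.1 and 555.3 CPM in Mll1+/- mice 1 to 4 and 273.4, 247.1, 233.1 and 256.4 CPM in Mll1-/- mice 1 to 4, the order kept for all values by mouse. All 4 Mll1-/- libraries lay below the lowest Mll1+/- library, and their values lay within 1.17-fold of each other. The log2 fold change was -0.92 (SE 0.13, adjusted p = 0.0918 by edgeR), the 6th smallest p of all genes tested. Within the sets of mouse numbers it was -0.77 and -1.05. The threshold was missed with the mouse set as a term (adjusted p = 0.113), with a covariate from *Xist* and Y-linked genes (0.206), and without any 1 library other than Mll1-/- mouse 3 (0.18 to 0.25), while without Mll1-/- mouse 3 it was 0.0689. In the remaining fits with all 8 libraries the adjusted p ran from 4.82e-07 (DESeq2's Wald test, which called 406 genes) to 0.0973 (edgeR with DESeq2 size factors). The log2 fold change over all of these fits lay between -1.01 and -0.84.

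*Soat2* (ENSMUSG00000023045, chr15:102150526-102163469, plus strand) is the isoform known from enterocytes and hepatocytes, which esterifies cholesterol for lipoproteins. It measured 6.22, 10.6, 5.61 and 10.7 CPM in Mll1+/- mice and 10.9, 13.8, 14.3 and 21.7 CPM in Mll1-/- mice. The groups did not overlap, although the gap between the highest Mll1+/- and the lowest Mll1-/- library was small. The log2 fold change was 0.87 (SE 0.32, adjusted p = 0.481 by edgeR), and it was 0.56 and 1.13 within the mouse sets. All 8 tested enterocyte markers had negative log2 fold changes, such as *Fabp2*, a fatty acid binding protein (173 and 91.0 CPM in Mll1+/- and Mll1-/-), and *Anpep*, a brush border peptidase (42.7 and 17.8 CPM). The part of enterocytes in the *Soat2* values was not tested.

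Per kilobase of exon, the 2 acyltransferases came closer to each other in Mll1-/- libraries. The ratio of *Soat1* to *Soat2* per kilobase was 18.5, 8.18, 18.6 and 11.8 in the Mll1+/- libraries and 5.69, 4.03, 3.68 and 2.67 in the Mll1-/- libraries, in the order of mice given above. *Soat2* made up 5.1 to 10.9% of the pair per kilobase in Mll1+/- and 15.0 to 27.2% in Mll1-/-, without overlap. The summed CPM of both genes was 394.9 to 566 in Mll1+/- and 247.4 to 284.2 in Mll1-/-, so the sum followed *Soat1*.

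**Figure D2:**
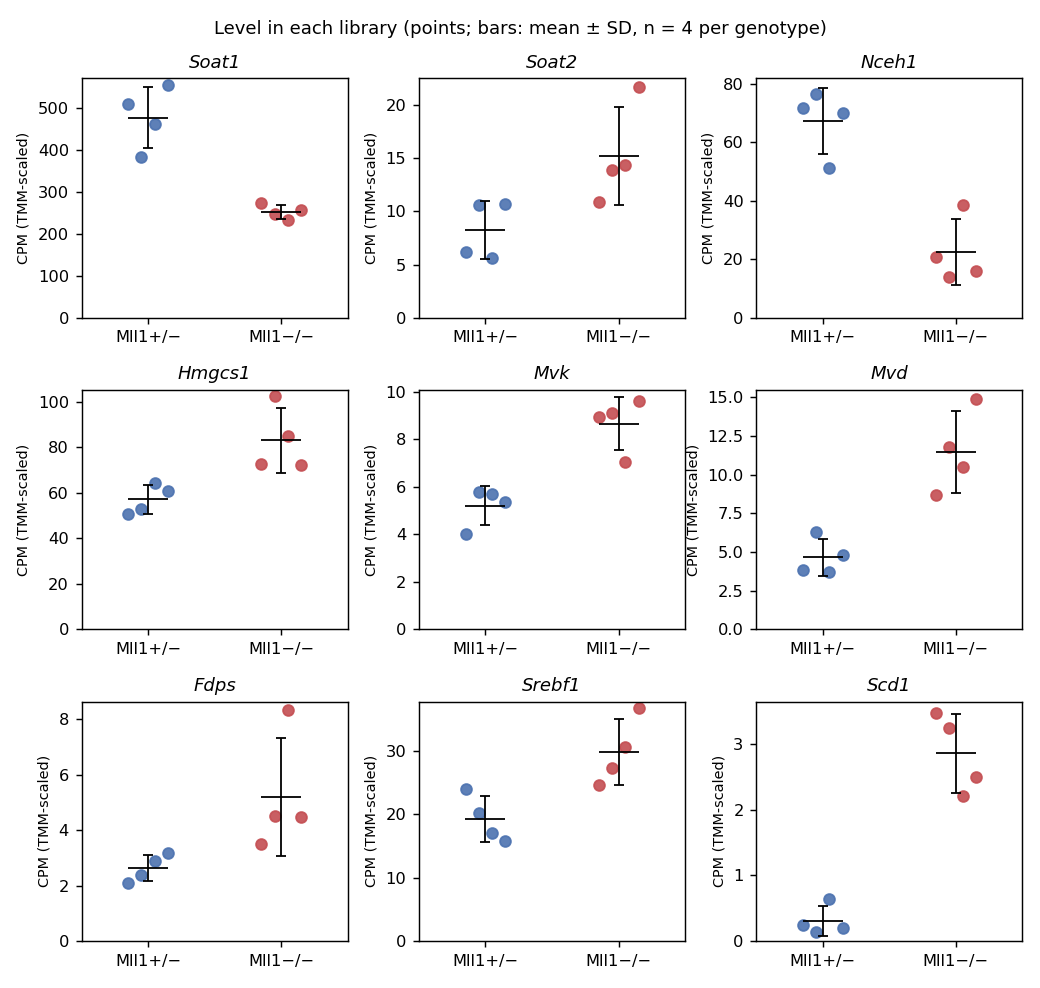
Level of 9 genes in each library in CPM on a linear axis from 0 (points, with the mean and SD of 4 libraries per genotype as bars). Soat1 and Nceh1 are lower in all 4 Mll1-/- libraries than in any Mll1+/- library, and Soat2, Hmgcs1, Mvk, Mvd, Fdps, Srebf1 and Scd1 are higher in all 4.

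Of the 18 synthesis genes, 16 had a positive log2 fold change and 2 a negative one, with a median of 0.45, against a median of 0.01 over all tested genes. At an unadjusted p under 0.05, 8 were higher and 1 was lower in Mll1-/- libraries (5.4 and 3.75% of all genes), and none passed the adjusted threshold in edgeR. The 8 became 4 without Mll1+/- mouse 2 and 5 without Mll1+/- mouse 1, and lay between 6 and 9 without any other 1 library. 4 of the 18 were higher without overlap (3.34% of all genes). Summed over the 18 genes, the Mll1+/- libraries held 428.8, 472.3, 595.8 and 448 CPM (mean 486 ± 75.2, n = 4) and the Mll1-/- libraries 621.9, 700, 563.5 and 576 CPM (mean 615 ± 61.8). The sums overlapped, because the library of Mll1+/- mouse 3 lay above those of Mll1-/- mice 3 and 4.

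The first enzymes of the pathway make and activate mevalonate. *Hmgcs1*, the cytosolic HMG-CoA synthase whose promoter is shown above, measured 50.7, 53.0, 64.3 and 60.7 CPM in Mll1+/- mice and 72.5, 103, 85.2 and 72.3 CPM in Mll1-/- mice. Its groups did not overlap, and the log2 fold change was 0.54 (SE 0.16, adjusted p = 0.365 by edgeR). Of the exonic bases of *Hmgcs1*, 12.1% lie also in *Gm48342*, so its counts are uncertain. *Mvk*, mevalonate kinase, measured 4.01, 5.77, 5.70 and 5.36 CPM in Mll1+/- mice and 8.91, 9.09, 7.03 and 9.59 CPM in Mll1-/- mice, which again did not overlap (0.73, SE 0.25, adjusted p = 0.460). *Pmvk*, phosphomevalonate kinase, overlapped through 1 library, Mll1+/- mouse 3 at 27.0 CPM, with the other 3 Mll1+/- libraries at 18.6 to 19.0 and the Mll1-/- libraries at 25.8 to 32.3 CPM (0.52, SE 0.19, adjusted p = 0.481).

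*Mvd*, mevalonate diphosphate decarboxylase, had the largest log2 fold change of the 35 genes. It measured 3.83, 6.33, 3.69 and 4.78 CPM in Mll1+/- mice and 8.67, 11.8, 10.5 and 14.9 CPM in Mll1-/- mice. The means differed 2.46-fold, all 4 Mll1-/- libraries lay above every Mll1+/- library, and the log2 fold change was 1.30 (SE 0.29, adjusted p = 0.205 by edgeR), with 0.97 and 1.47 within the mouse sets. In DESeq2's Wald test on the same genes, *Mvd* (adjusted p = 0.00502) and *Hmgcs1* (0.0725) passed the threshold beside *Soat1*, but that test called 406 genes where edgeR called 14. The study's own comparison of the genotypes also used DESeq2, in an earlier version, at the same false discovery rate. *Acat2*, the thiolase that joins acetyl-CoA units and is not *Soat2* despite that enzyme's older alias, measured 30.3 to 44.8 CPM in Mll1+/- and 43.3 to 46.5 CPM in Mll1-/- (0.32, SE 0.16). It shares 43.8% of its 31-base words with *Acat3*, so its counts are uncertain.

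The isoprenoid diphosphate and squalene steps came next. *Fdps*, farnesyl diphosphate synthase, measured 2.09, 2.39, 2.89 and 3.16 CPM in Mll1+/- mice and 3.48, 4.52, 8.33 and 4.47 CPM in Mll1-/- mice, with no overlap and the highest value in Mll1-/- mouse 3 (0.98, SE 0.37, adjusted p = 0.486 by edgeR). Its log2 fold change was 0.66 without that library, and 26.7% of its exonic bases lie also in *Gm43738*, so its counts are uncertain. *Fdft1*, squalene synthase, measured 33.6 to 58.1 CPM in Mll1+/- and 55.3 to 66.4 CPM in Mll1-/- and overlapped through Mll1+/- mouse 3 (0.50, SE 0.19). Of the exonic bases of *Fdft1*, 18.3% lie also in *Ctsb*, so its counts are uncertain. *Idi1*, isopentenyl diphosphate isomerase, and *Sqle*, squalene epoxidase, had log2 fold changes of 0.28 (SE 0.27) and 0.29 (SE 0.23) and overlapped widely, and moved to 0.11 (*Idi1*, without Mll1-/- mouse 2) and 0.13 (*Sqle*, without Mll1-/- mouse 3). *Idi1* shares 18.8% of its 31-base words with other genes, so its counts are uncertain.

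*Lss*, lanosterol synthase, measured 10.6, 4.50, 11.95 and 3.10 CPM in Mll1+/- mice and 18.9, 17.9, 21.7 and 11.8 CPM in Mll1-/- mice. The groups met only at 11.95 and 11.8 CPM, and the log2 fold change was 1.23 (SE 0.43, adjusted p = 0.471 by edgeR), about equal in both mouse sets (1.34 and 1.31). *Cyp51*, lanosterol demethylase, measured 25.7, 29.7, 52.9 and 18.3 CPM in Mll1+/- mice and 63.1, 59.3, 35.8 and 65.8 CPM in Mll1-/- mice, with Mll1+/- mouse 3 and Mll1-/- mouse 3 the farthest from the others of their group (0.82, SE 0.33, adjusted p = 0.506). *Msmo1*, the methylsterol oxidase of the next step, spread the most of the synthesis genes within Mll1+/-, at 31.3, 39.3, 104 and 16.9 CPM, a 6.14-fold range, and measured 77.5, 89.7, 31.2 and 54.3 CPM in Mll1-/- (0.40, SE 0.53). It moved to 1.115 without Mll1+/- mouse 3 and to 0.12 without Mll1+/- mouse 4. Its difference was 1.24 in the first mouse set and -0.03 in the second.

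The later steps had log2 fold changes between -0.60 and 0.51. *Tm7sf2*, a sterol reductase, had a log2 fold change of 0.28 (SE 0.26), with 47.2% of its exonic bases in other genes, among them *Vps51*, and uncertain counts for that reason, and had 0.09 without Mll1-/- mouse 4. *Nsdhl*, a sterol dehydrogenase, had 0.27 (SE 0.22), *Hsd17b7*, its partner ketoreductase, 0.51 (SE 0.50), and *Dhcr7*, the last reductase, 0.40 (SE 0.30), all with overlap between the genotypes. Without 1 library these ranged from 0.155 to 0.419 (*Nsdhl*, lowest without Mll1+/- mouse 3 and highest without Mll1+/- mouse 4), from 0.248 to 0.875 (*Hsd17b7*, Mll1-/- mouse 1 and Mll1+/- mouse 2) and from 0.28 to 0.72 (*Dhcr7*, Mll1+/- mice 1 and 2). *Ebp*, the sterol isomerase, was the most abundant synthesis gene per kilobase and had -0.10 (SE 0.16). *Sc5d*, the lathosterol desaturase just before the last step, had the most negative log2 fold change of the synthesis genes, with 40.8, 52.7, 60.3 and 38.9 CPM in Mll1+/- mice and 34.6, 39.9, 23.4 and 29.0 CPM in Mll1-/- mice. 3 of its 4 Mll1-/- libraries lay below every Mll1+/- library, and the log2 fold change was -0.60 (SE 0.22, adjusted p = 0.481 by edgeR).

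The libraries of 1 genotype did not move as a block, as the map of the synthesis genes by library shows. In Mll1-/- mouse 2 all 18 genes lay above their mean over the 8 libraries, and in Mll1-/- mice 1, 3 and 4 this held for 13, 11 and 13 genes. In Mll1+/- mice 1 to 4 it held for 3, 5, 9 and 5 genes. Mll1+/- mouse 4 held the lowest of the 8 values for 6 genes, *Sqle*, *Lss*, *Cyp51*, *Tm7sf2*, *Msmo1* and *Hsd17b7*, although its values for *Acat2*, *Nsdhl* and *Ebp* were the highest among the Mll1+/- libraries. Mll1+/- mouse 1 held the lowest of the 8 for 6 others, *Acat2*, *Hmgcs1*, *Mvk*, *Idi1*, *Fdps* and *Dhcr7*. Mll1+/- mouse 3 held the highest Mll1+/- value for 8 genes. Mitochondrial counts took 30.1% of the library of Mll1+/- mouse 3, the highest share, and 23.3% of that of Mll1+/- mouse 4, and their part in these values was not tested.

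**Figure D3:**
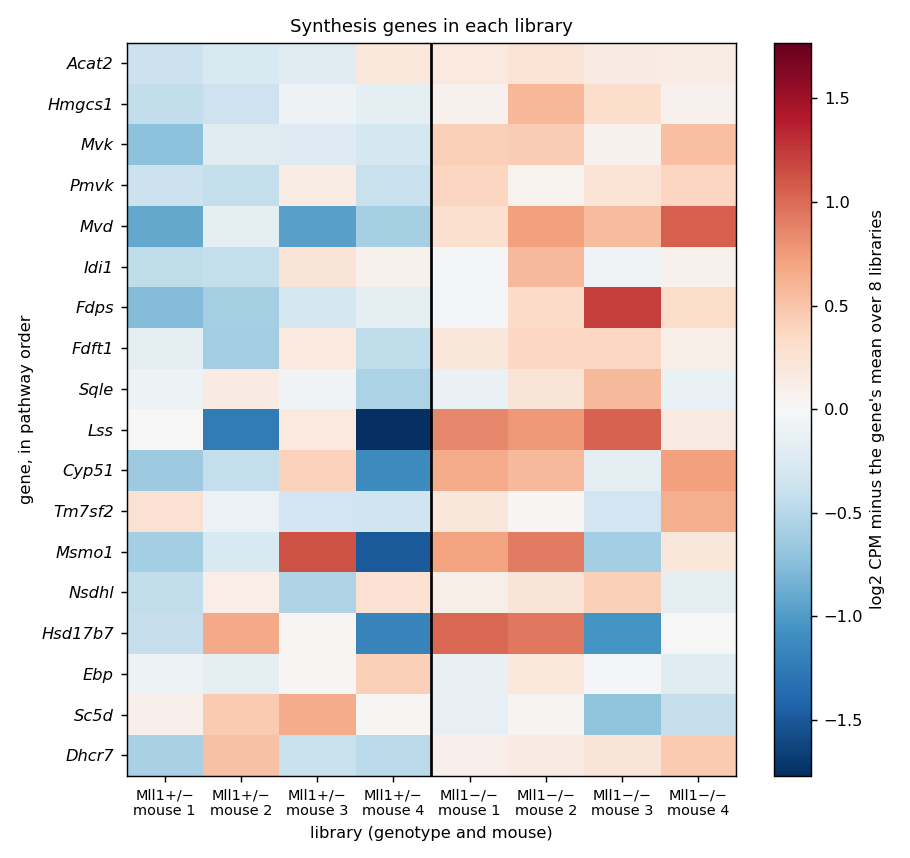
Log2 CPM of the 18 synthesis genes (rows, in pathway order) in the 8 libraries (columns, Mll1+/- on the left and Mll1-/- on the right), as the difference from the mean of each gene over all libraries. Red is above that mean and blue below it, all 18 genes are above it in Mll1-/- mouse 2, and 3 of 18 are above it in Mll1+/- mouse 1.

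Among the sensors, *Srebf1*, which encodes the SREBP1 factors of fatty acid and sterol genes, was the 1 gene without overlap. It measured 24.1, 20.3, 17.0 and 15.8 CPM in Mll1+/- mice and 24.7, 27.3, 30.7 and 36.8 CPM in Mll1-/- mice. The gap between the groups was 24.1 to 24.7 CPM, and the log2 fold change was 0.63 (SE 0.21, adjusted p = 0.433 by edgeR), with 0.23 in the first mouse set and 1.01 in the second. *Srebf2*, which encodes the main SREBP of cholesterol genes, measured 17.0 to 25.6 and 18.5 to 32.1 CPM (0.38, SE 0.23), and its escort *Scap* 18.5 to 20.5 and 18.2 to 32.6 CPM (0.28, SE 0.22, and 0.08 without Mll1-/- mouse 4). Both overlapped between the genotypes.

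The 2 INSIG genes, whose proteins retain SCAP, had opposite signs. *Insig1*, itself a known SREBP target, measured 6.64, 10.3, 16.8 and 8.46 CPM in Mll1+/- mice and 16.6, 16.0, 23.7 and 8.74 CPM in Mll1-/- mice (0.63, SE 0.37, adjusted p = 0.655 by edgeR), with 0.39 without Mll1-/- mouse 3 and 0.94 without Mll1+/- mouse 3. *Insig2* measured 15.4 to 40.6 and 18.3 to 30.9 CPM (-0.28, SE 0.31). The genotypes overlapped for both genes.

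The LXR receptors and their targets were more variable. *Nr1h2*, which encodes LXRβ, measured 18.0, 11.8, 9.46 and 15.6 CPM in Mll1+/- mice and 21.0, 16.1, 41.1 and 21.0 CPM in Mll1-/- mice, and Mll1-/- mouse 3 lay far above the others (0.85, SE 0.33, adjusted p = 0.499 by edgeR). Its log2 fold change was 0.49 without that library. *Nr1h3*, which encodes LXRα, measured 5.33 to 12.3 and 6.85 to 16.5 CPM (0.54, SE 0.34, and 0.36 without Mll1-/- mouse 3). Of the 2 targets, *Abca1*, the exporter that loads cholesterol on apolipoproteins, had a log2 fold change of -0.08 (SE 0.37). *Mylip*, whose protein sends the LDL receptor to degradation, had 0.21 (SE 0.64), with Mll1-/- mouse 4 at 6 counts (0.394 CPM) and the other Mll1-/- libraries at 3.25 to 5.43 CPM.

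No uptake or transport gene had an unadjusted p under 0.05 in edgeR with all 8 libraries. *Npc2*, the lysosomal carrier of cholesterol, was abundant and even, at 189 to 213 CPM in Mll1+/- and 158 to 227 CPM in Mll1-/- (-0.08, SE 0.13). *Abcg5*, 1 subunit of the transporter that returns sterols to the gut lumen, measured 33.6, 19.1, 23.9 and 15.6 CPM in Mll1+/- and 14.5, 13.2, 16.4 and 18.3 CPM in Mll1-/- (-0.56, SE 0.26, adjusted p = 0.564 by edgeR). The log2 fold change of *Abcg5* was -0.32 without Mll1+/- mouse 1 and -0.71 without Mll1+/- mouse 4, and its unadjusted p was under 0.05 in the latter fit, in DESeq2 and in limma-voom. Its partner *Abcg8*, which shares the gene's start region head to head, measured 27.0, 15.1, 8.34 and 16.8 CPM in Mll1+/- and 14.04, 6.66, 39.2 and 14.8 CPM in Mll1-/- (0.15, SE 0.53). The ratio of the 2 per kilobase ran from 1.28 to 3.96 in Mll1+/- and from 0.578 to 2.74 in Mll1-/-. *Npc1l1*, the uptake receptor of the brush border, lay at 2.21 to 6.72 and 2.95 to 9.52 CPM (0.29, SE 0.46), and *Stard4*, a cytosolic sterol carrier, at 35.1 to 72.3 and 38.6 to 97.5 CPM (0.27, SE 0.33).

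*Npc1*, the membrane partner of *Npc2* in the lysosome, differed in opposite directions in the 2 sets of mice. It measured 23.9 and 19.9 CPM in the Mll1+/- mice and 12.9 and 13.2 CPM in the Mll1-/- mice of the first set, and 10.6 and 4.33 against 24.9 and 19.6 CPM in the second. Each set was without overlap, with log2 differences of -0.72 and 1.63. With 2 libraries per genotype in a set, groups lie apart easily, and the share of all genes that do so is not given here. The interaction of genotype and mouse set had a log2 value of 2.33 (SE 0.61, adjusted p = 0.663 by edgeR) and did not pass the threshold, as held for all 16445 genes (smallest adjusted p 0.611). *Abcg8* also had opposite signs, with -1.02 and 0.99 (interaction 2.13, SE 0.89, adjusted p = 0.720), but its genotypes overlapped in the second set, where Mll1-/- mouse 3 alone lay above both Mll1+/- mice. An unadjusted interaction p under 0.05 by edgeR was reached by 3 of the 35 genes, *Npc1*, *Abcg8* and *Srebf1* (interaction 0.81, SE 0.33, adjusted p = 0.720). In all, 28 of the 35 genes had the same sign in both sets, 15 of the 18 synthesis genes among them, of which 14 were positive in both.

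**Figure D4:**
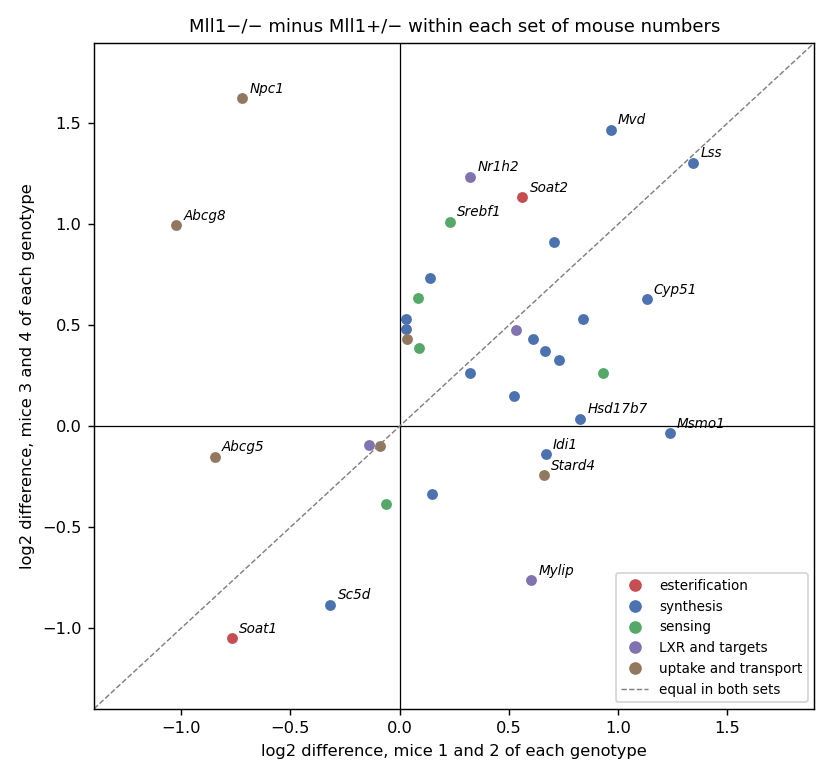
Log2 difference of each gene, Mll1-/- minus Mll1+/-, in mice 1 and 2 (horizontal axis) and in mice 3 and 4 of each genotype (vertical axis), with 2 libraries per genotype in each set, coloured by role. 28 of 35 genes have the same sign in both sets, Soat1 lies at -0.77 and -1.05, and Npc1 and Abcg8 lie at the upper left.

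Levels between genes were compared per kilobase of exon. In Mll1+/- libraries *Soat1* came first with 48.8 ± 7.47 CPM per kilobase (mean ± SD, n = 4), above *Npc2* with 37.1 ± 2.14 and *Ebp* with 32.7 ± 6.20. In Mll1-/- libraries *Npc2* (35.03 ± 5.47) and *Ebp* (30.4 ± 3.66) came before *Soat1* (25.8 ± 1.73). *Soat1* stood above 91.9% of the tested genes in Mll1+/- and above 86.5% in Mll1-/-. *Mvd* moved from place 26 to place 16 of the 35 (2.51 ± 0.65 and 6.17 ± 1.41 CPM per kilobase), and *Sc5d* from 10 to 14 (9.90 ± 2.09 and 6.51 ± 1.46). *Fdps* and *Lss* were lowest in Mll1+/- with 0.626 ± 0.114 and 0.699 ± 0.407. The ranges of 32 of the 34 neighbouring pairs in the Mll1+/- order overlapped, the exceptions being *Soat1* with *Npc2* and *Ebp* with *Acat2*, so most of the order is not resolved. The median of the 35 genes was 3.74 CPM per kilobase in Mll1+/- and 5.67 in Mll1-/-, beside 3.71 and 3.85 for all tested genes.

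**Figure D5:**
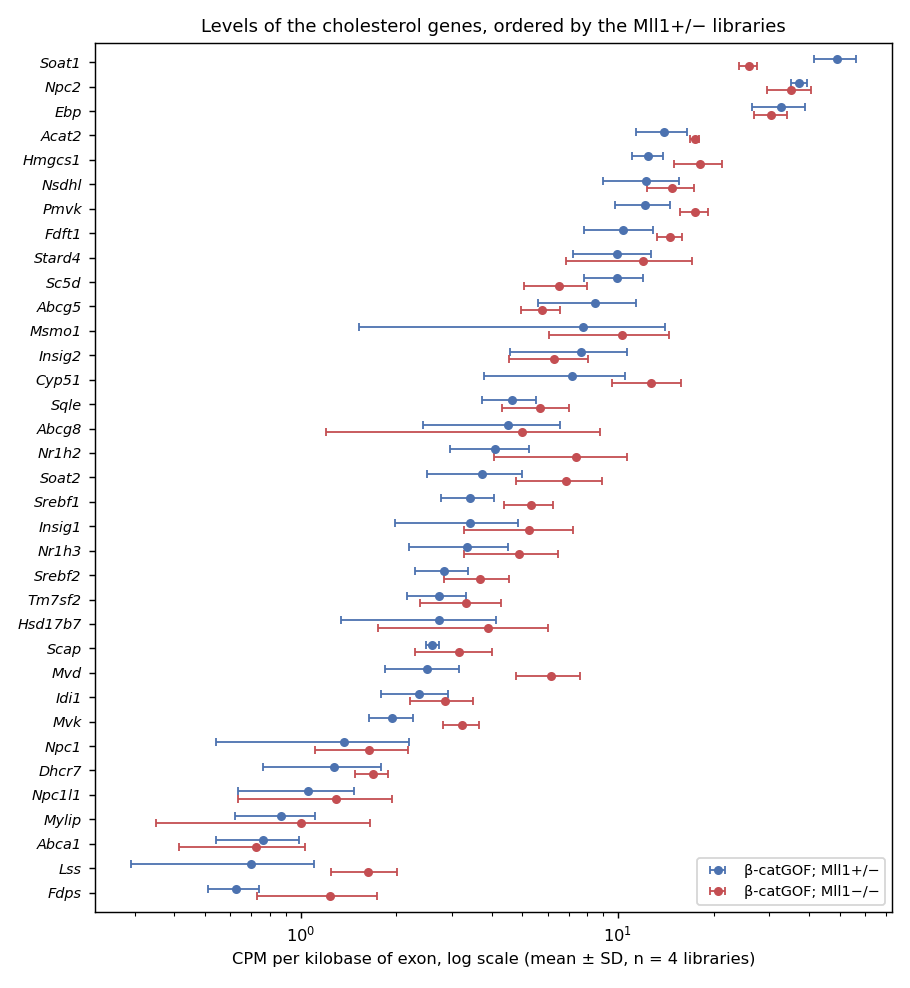
CPM per kilobase of exon on a log axis for the 35 genes, ordered from high to low by the Mll1+/- libraries (points are means and bars SD of 4 libraries per genotype). Soat1 is first in Mll1+/- at 48.8 and at place 3 in Mll1-/- at 25.8, and most neighbours overlap.

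In 5 further lists of genes next to the pathway, 78 genes with 75 tested, none passed the adjusted threshold, 7 were higher and 4 lower in Mll1-/- at an unadjusted p under 0.05 (5.4 and 3.75% of all genes), and 40 of the 75 log2 fold changes were positive. The 3 tested genes of each list with the smallest p are named here. The fatty acid genes under SREBP1 and LXR had 11 of 15 positive (median 0.39) and 4 higher at an unadjusted p under 0.05. Among them *Scd1*, a stearoyl-CoA desaturase whose product oleoyl-CoA serves the SOAT enzymes, was low, with 4, 2, 8 and 3 counts in the Mll1+/- libraries and 59, 56, 41 and 38 counts in the Mll1-/- libraries. All 4 Mll1-/- libraries lay above every Mll1+/- library (log2 fold change 3.22, SE 0.58, adjusted p = 0.151 by edgeR). Its paralog *Scd2* measured 48.3 ± 20.6 and 103 ± 43.8 CPM (1.10, SE 0.44, adjusted p = 0.511), and *Aacs*, acetoacetyl-CoA synthetase, 8.49 ± 2.22 and 16.9 ± 6.27 CPM (0.99, SE 0.33, adjusted p = 0.449).

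The neutral lipid list had 7 of 16 positive (median -0.10), with 2 higher and 2 lower at an unadjusted p under 0.05, beside 5.4 and 3.75% of all genes. *Nceh1*, a hydrolase that frees cholesterol from its esters, measured 71.6, 76.6, 51.1 and 70.1 CPM in Mll1+/- mice and 21.0, 13.8, 38.7 and 16.0 CPM in Mll1-/- mice. The groups did not overlap and the log2 fold change was -1.59 (SE 0.32, adjusted p = 0.195 by edgeR), so the values of *Soat1* and *Nceh1*, which work in opposite directions on the ester, were both lower in every Mll1-/- library. *Pnpla2*, a triglyceride lipase, had 0.72 (SE 0.24) and *Bscl2*, the lipid droplet protein seipin, 0.51 (SE 0.21), both higher without overlap.

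The remaining lists were near balance. Sterol movement outside the 35 genes had 8 of 16 positive (median -0.03), led by *Apoa1*, an apolipoprotein that is also on the enterocyte marker list, with 29.1 ± 6.04 and 12.95 ± 2.56 CPM (-1.16, SE 0.23, adjusted p = 0.166 by edgeR, no overlap). The sterol transfer genes *Gramd1a* and *Gramd1b* had 0.48 (SE 0.23) and 0.87 (SE 0.49). SREBP processing had 6 of 11 positive (median 0.04), with the coat proteins of the vesicles that carry SCAP, *Sec24a* at -0.65 (SE 0.28, no overlap) and *Sec23a* at -0.46 (SE 0.26), and the ubiquitin ligase *Rnf139* at -0.42 (SE 0.31). The isoprenoid branches had 8 of 17 positive (median -0.02), with *Rabggta* of Rab prenylation at 0.79 (SE 0.34), *Ggps1*, geranylgeranyl diphosphate synthase, at -0.52 (SE 0.24), and *Coq2* of ubiquinone synthesis at 0.29 (SE 0.15).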

How the data were processed

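Total RNA of sorted cells of 8 mice, 1 library per mouse, was sequenced after amplification of cDNA. Reads were mapped to mm10 with GSNAP by the authors, who deposited raw read counts per gene from featureCounts 1.6.3 (Ensembl genes, strand not used, uniquely mapped reads), and bcl2fastq 2.19.1 and DESeq2 1.22.2 are also named in the submitters' notes. A second deposited table holds signal for 25485 genes, the counts divided by 1 size factor per library, and was used here only to match symbols to gene IDs. Another deposited column gives exonic length in bases, used for levels per kilobase.

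Counts were fitted in R 4.3.3 with edgeR 4.0.16 (robust quasi-likelihood test, TMM scaling, filterByExpr with a minimum of 10 and a total of 15, genotype as the only term, two-sided). Adjustment was by Benjamini-Hochberg over all 16445 genes at 0.1, the rate the study used with DESeq2. The p-values weigh the genotype difference against the spread between libraries. With 1 library per mouse, that spread holds differences between mice, sorting and amplification together. Differences within mouse sets are of mean log2(CPM + 0.5). Each of the 35 genes, *Kmt2a*, and the 3 tested genes with the smallest p of each further list were named. These 35 genes and the lists were chosen with earlier results of these data known. Unnamed genes of the further lists, and other genes of the pathway, are not reported here. Counts of reads shared with other genes were not redistributed. Shared exonic bases came from the exon coordinates in the deposited count table, and shared 31-base words from GENCODE transcripts of the same build. Promoters and their motifs came from RefSeq. The alternatives were DESeq2 size factors, upper quartile scaling, DESeq2 1.42.0, limma 3.58.1 (voom with quality weights), 2 filters, the mouse set or an *Xist* and Y-linked covariate as a term, and each library left out. The test was checked on simulated data. Figures were drawn with matplotlib 3.10.9.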

Additional observations from a re-analysis of the deposited data

Results flagged for a closer look

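In 70 groups of 4 libraries (35 genes in 2 genotypes), 3 had 1 library farther from the others than Dixon's 95% value allows, and chance alone gives about 1 in 20. *Pmvk* measured 27.03 CPM in Mll1+/- mouse 3, with the other Mll1+/- libraries at 18.56 to 18.97 CPM. *Dhcr7* measured 11.88 CPM in Mll1+/- mouse 2, with the others at 5.565 to 6.336 CPM. *Insig2* measured 30.86 CPM in Mll1-/- mouse 1, with the others at 18.25 to 19.74 CPM.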

How the results depend on the processing

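The edgeR count of genes passing the threshold, 14, moved to 8 with upper quartile scaling, 406 with DESeq2's Wald test, 103 with limma-voom, 47 without a filter, 34 with at least 10 counts in every library, and 0 with the mouse set or the *Xist* and Y-linked covariate as a term, and ranged from 0 to 45 (45 without Mll1-/- mouse 3, 2 without Mll1-/- mouse 1 and 0 without any other) when 1 library was left out. The count of cholesterol genes passing it, 1, became 3 with DESeq2's Wald test, 0 with either added term, and 0 to 1 without 1 library. The count at an unadjusted p under 0.05, 13, was 13 to 15 in the other fits and 7 to 12 without 1 library (7 without Mll1+/- mouse 2). With either added term, and in each fit without 1 library other than Mll1-/- mouse 3, *Soat1* missed the threshold. The count without overlap, 7, ranged from 8 to 11 without 1 library (11 without Mll1+/- mouse 3), where only 3 libraries of a genotype had to lie apart. The median of the synthesis genes ranged from 0.37 to 0.57 without 1 library. 27 of the 35 genes kept their sign in all 16 alternatives and 8 reversed at least once, all of them genes whose log2 fold change was within its SE of 0. These were *Npc1l1* (-0.004 in limma-voom and -0.063 without Mll1-/- mouse 3), *Abcg8* (-0.57 in limma-voom, -0.075 without Mll1+/- mouse 3 and -0.51 without Mll1-/- mouse 3), *Mylip* (-0.39 with the covariate and -0.16 without Mll1-/- mouse 1), *Stard4* (-0.014 with the covariate), *Abca1* (0.029 without Mll1+/- mouse 1, 0.044 without Mll1+/- mouse 4, 0.075 without Mll1-/- mouse 2 and 0.093 without Mll1-/- mouse 4), and *Ebp* (0.032), *Insig2* (0.001) and *Npc1* (-0.045) without Mll1+/- mouse 4. The causes were not tested. The level order was the same with DESeq2 size factors. No paired analysis was run, because the labels name no pairs of mice across the genotypes. Low counts limit *Mylip* (6 to 92 counts per library) and *Fdps* (34 to 154).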
